A study of Mus musculus with 6 samples.

Results

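The 9 genes described are genes of cytosolic DNA sensing and of nuclear envelope reassembly, out of 13709 gene rows measured in Tregs with and without Zfp335: Mb21d1 (cGAS), Tmem173 (STING), Tbk1, Trex1, Banf1 (Baf), Ankle2, Vrk1, Emd and Lemd3. They were taken by name, from a list chosen with earlier results of these data known. All 9 were found and passed the filter on low counts. The table lists Mb21d1 as Cgas and Tmem173 as Sting1. Sorted CD4+YFP+CD25+ cells of C57BL/6 mice had been profiled by bulk RNA-Seq, with 3 samples per genotype. By the study's methods, WT mice carried Foxp3Cre alone and KO mice carried Foxp3Cre with Zfp335 fl/fl, so that Cre and the YFP tag came from the Foxp3 locus in both groups and deletion was directed to Foxp3-expressing cells. The methods of the study give an age of 2 weeks. The labels name both lymph nodes and spleen as the source, and whether a sample was 1 mouse or a pool was not stated, so p-values measure the spread between these samples, which may be technical.

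cGAS binds double-stranded DNA in the cytosol and makes the cyclic dinucleotide cGAMP, which activates STING on the endoplasmic reticulum. STING then recruits the kinase TBK1, which phosphorylates IRF3 and so turns on type I interferon, while the exonuclease TREX1 degrades stray DNA before it is sensed. Baf is a small DNA-binding protein that holds chromosomes together while the nuclear envelope reforms after mitosis and that keeps cGAS off nuclear DNA. The kinase VRK1 releases Baf from DNA by phosphorylating it, ANKLE2 favors its dephosphorylation by the phosphatase PP2A, and the LEM-domain proteins emerin (Emd) and MAN1 (Lemd3) tether Baf to the inner nuclear membrane.

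The 6 libraries held 32032631 to 40728419 counts each. Zfp335 itself stood at 101.3, 94.3 and 102.6 counts per 1000000 counts of the library (CPM) in WT samples 1 to 3 and at 37.0, 37.9 and 40.2 CPM in KO samples 1 to 3, or 38.6% of the WT mean. The counts cover the whole gene, so transcripts that lack only the deleted part may still be counted. Foxp3, which defines these cells, was present in every sample, at 738, 642 and 1190 CPM in WT and 460, 472 and 463 CPM in KO. Its log2 fold change was -0.88 and called with all samples, and -0.57 and not called without WT sample 3. WT sample 3 stood apart from WT samples 1 and 2. On the second principal component, which held 18.4% of the variance, it lay at -58.9 while the other 5 samples lay between 0.42 and 34.4. Calls named below that changed when this sample was left out are given both ways, and no cause for its position is stated in the labels. Calls required a fold change above 1.5, p under 0.05 and a Benjamini-Hochberg adjusted p under 0.1 in edgeR's quasi-likelihood test over all 13594 genes tested.

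Ankle2 fell in KO Tregs, and it was the only one of the 9 genes that was called. No member was called higher by edgeR or by DESeq2, while 3 were higher and 3 lower at an unadjusted edgeR p under 0.05. Of all genes tested, 24.4% were called, 11.9% higher and 12.5% lower, so the share of members called (11.1%) was below that of the table. There were 6 members that differed without overlap between the groups, against 53.8% of all genes. The same number, 6 of 9, had an adjusted p under 0.1 before any fold cutoff, against 47% of all genes. The median log2 fold change of the members was 0.03 against -0.04 for all genes. Fold changes of the members ran from -0.87 for Ankle2 to 0.53 for Mb21d1.

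**Figure D1:**
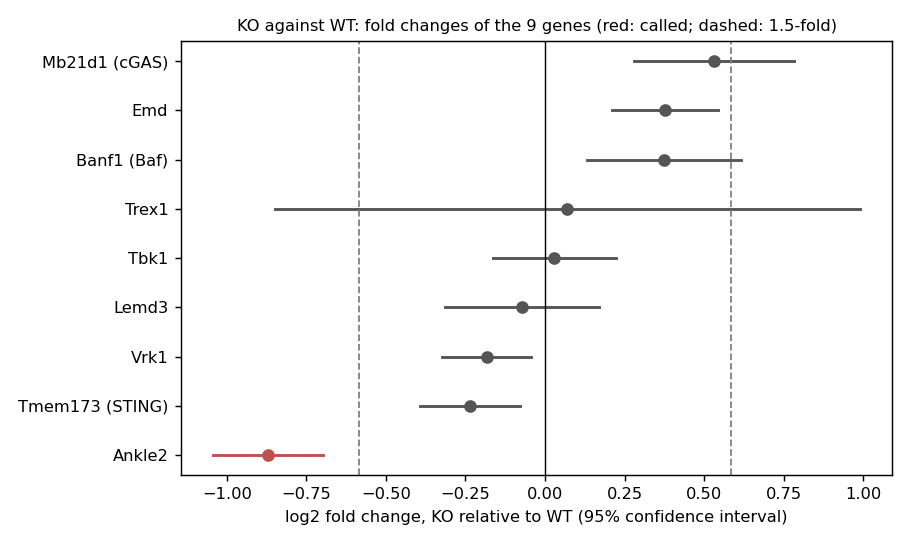
Log2 fold change of each gene in KO relative to WT Tregs (x axis), with its 95% confidence interval as a line, from edgeR with n = 3 per group. Ankle2 (red) was the only gene called, at -0.87, while the interval of Trex1 ran from -0.85 to 0.99 and that of Tbk1 from -0.16 to 0.22.

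Ankle2 (RefSeq GRCm38.p6, chr5:110231004-110256651, plus strand) encodes the adaptor that promotes removal of phosphate from Baf. It measured 67.9, 62.8 and 68.5 CPM in the WT samples and 37.8, 35.3 and 35.9 CPM in the KO samples. The groups were far apart, with the lowest WT sample well above the highest KO sample, and the replicates of each group lay close together. The means were 66.4 ± 3.16 CPM for WT and 36.4 ± 1.27 CPM for KO (SD, n = 3 each). The log2 fold change was -0.87 ± 0.07 (SE; 95% confidence interval -1.04 to -0.70), with an edgeR adjusted p of 0.000155. Without WT sample 3 it was -0.85, and Ankle2 was called in each of the 15 alternative analyses. The genes whose profile over the 6 samples was nearest to that of Ankle2, by Euclidean distance of centered log2 CPM among 9881 genes, were Dnajb2 (distance 0.08), Ralgps1 (0.09) and Eef1akmt4 (0.10). Their log2 fold changes were -0.83, -0.88 and -0.82, and all 3 were called. As they were chosen for likeness to Ankle2 in the same samples, these values follow from the choice. The sequence of the 250 bases before the Ankle2 start is given because this was the gene that fell, at chr5:110230754-110231003 of GRCm38.p6 on the plus strand, from RefSeq.
Ankle2: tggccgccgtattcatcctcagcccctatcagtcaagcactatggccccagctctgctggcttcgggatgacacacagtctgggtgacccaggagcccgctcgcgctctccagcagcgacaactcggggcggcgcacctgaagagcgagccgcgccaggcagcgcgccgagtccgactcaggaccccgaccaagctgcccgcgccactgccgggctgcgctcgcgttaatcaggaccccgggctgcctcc
It held 68.8% G and C. Several motifs were searched on both strands: the core of the interferon-stimulated response element (GAAANNGAAA), E2F sites (TTTCCCGC, TTTCGCGC, TTTGCCGC or TTTGGCGC), an ETS site (CCGGAAGT) and the CCAAT box (CCAAT). None of these letters occurred in this window, which therefore holds no capitals. Among 32841 promoters of the same length, 2.98%, 1.86%, 2.88% and 33.9% held them, in that order.

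Banf1 (chr19:5364633-5366876, minus strand), which encodes Baf itself, lay on the opposite side of WT from Ankle2. It measured 63.4, 73.4 and 55.8 CPM in WT and 85.4, 79.7 and 84.4 CPM in KO, so that every KO sample was above every WT sample. The log2 fold change was 0.37 ± 0.10 (SE; interval 0.13 to 0.61) with an edgeR adjusted p of 0.0239, which passed the p threshold but not the fold of 1.5. WT sample 3 was the lowest of the 6 samples, and without it the log2 fold change was 0.28. The annotation of Banf1 overlaps that of Eif1ad by 64 bases, and since it was not stated whether counting used the strand, reads there could be assigned to either gene. Eif1ad had mean values of 52.0 CPM in WT and 69.4 CPM in KO, with a log2 fold change of 0.42 and an edgeR adjusted p of 0.00802. In the 250 bases before the first of 2 Banf1 starts there was an E2F match, TTTCCCGC, from -81 to -74 relative to the start. The same window held a CCAAT box from -185 to -181. The window before the other start held none of the motifs searched. Among the other members, matches were found for Lemd3 (ETS and CCAAT), Emd (CCAAT), a Vrk1 start (CCAAT) and Mb21d1 (E2F). Ankle2, Tbk1 and Trex1 held none, and Tmem173 was not searched. The bases just after the RefSeq start of Tbk1 were found in none of its GENCODE M21 transcripts, so that window is less certain.

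Vrk1 (chr12:106010139-106078318, plus strand), the kinase that acts on Baf in opposition to ANKLE2, was slightly lower in KO Tregs. Its values were 101.4, 98.9 and 96.1 CPM in WT and 88.5, 86.1 and 86.4 CPM in KO. The groups did not overlap, yet the difference was small, with a log2 fold change of -0.18 ± 0.06 (SE; interval -0.32 to -0.04) and an edgeR adjusted p of 0.0450, and it was not called. The ratio of Vrk1 to Ankle2 counts was 1.49, 1.58 and 1.40 in WT and 2.34, 2.44 and 2.40 in KO, a log2 difference of 0.69. This ratio does not depend on how libraries are scaled, and the highest WT ratio was below the lowest KO ratio. It is made from the same Vrk1 and Ankle2 counts as their fold changes, so it is not a separate result. A two-sided exact permutation test gave p = 0.1, which is the smallest p that 3 against 3 samples can give.

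**Figure D2:**
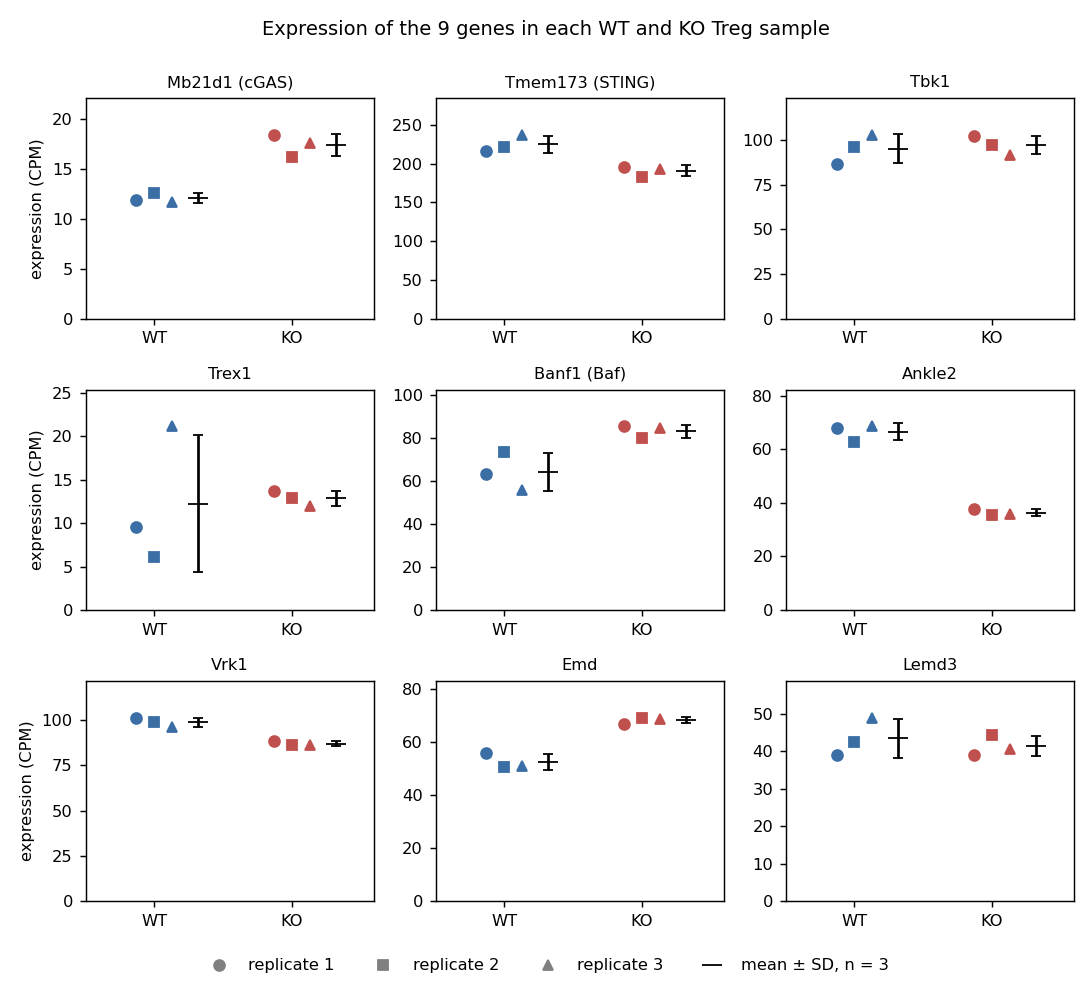
Expression in CPM (y axis, from 0) of each of the 9 genes in the 3 WT (blue) and 3 KO (red) samples, with marker shape for the replicate and black bars for the mean ± SD (n = 3). Ankle2 separates most clearly, at 62.8 to 68.5 CPM in WT and 35.3 to 37.8 CPM in KO, and WT sample 3 has the highest Trex1 value at 21.1 CPM.

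The membrane partners of Baf did not move together. Emd (chrX:74254674-74261563, plus strand) measured 56.0, 50.8 and 50.9 CPM in WT and 66.9, 69.2 and 68.6 CPM in KO. All KO samples lay above all WT samples, and the log2 fold change was 0.38 ± 0.07 (SE; interval 0.21 to 0.54) with an edgeR adjusted p of 0.00490, and the fold stayed below the cutoff. Emd is X-linked, and Y-linked genes differed between the groups: 3 of the 4 measured were called lower in KO, with a summed level of 169 to 378 CPM in WT and 129 to 146 CPM in KO, the highest in WT sample 3. Without that sample 2 of the 4 were called lower, and the call of Eif2s3y was lost (log2 fold change -0.82 with and -0.44 without it). The part of this in the Emd value was not tested. Lemd3 (chr10:120923411-120979396, minus strand) measured 38.9, 42.5 and 49.0 CPM in WT and 39.1, 44.3 and 40.7 CPM in KO. Its groups overlapped, with WT sample 3 the highest of all, and the log2 fold change was -0.07 (interval -0.31 to 0.17, edgeR adjusted p = 0.630). Emd overlaps the pseudogene Gm14686, and Lemd3 the pseudogene Gm16166 and the noncoding genes Gm50589 and Gm35235, for which no row was in the table.

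Of the sensing genes, Mb21d1 (chr9:78430518-78443237, minus strand), the DNA sensor, had the largest log2 fold change with all samples, whereas without WT sample 3 that of Trex1 was larger (0.71 against 0.50). It measured 11.9, 12.7 and 11.7 CPM in WT and 18.4, 16.3 and 17.7 CPM in KO. The groups did not overlap, and the log2 fold change was 0.53 ± 0.11 (SE; interval 0.28 to 0.78) with an edgeR adjusted p of 0.00671. The estimate lay just under the 1.5-fold cutoff, which falls inside its interval, so Mb21d1 was not called with or without WT sample 3. The 250 bases before the Mb21d1 start, at chr9:78443238-78443487 of GRCm38.p6 on the minus strand, are given from RefSeq because this gene is the DNA sensor of the pathway and the window held an E2F match, which the capitals mark.
Mb21d1: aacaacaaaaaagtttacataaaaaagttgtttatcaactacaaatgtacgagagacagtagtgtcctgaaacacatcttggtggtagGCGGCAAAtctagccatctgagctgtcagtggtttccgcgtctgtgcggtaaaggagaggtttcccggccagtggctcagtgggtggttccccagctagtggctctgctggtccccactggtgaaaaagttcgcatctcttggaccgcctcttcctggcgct
The match ran from -162 to -155 relative to the start and reads GCGGCAAA here, the reverse complement of one of the E2F sequences searched.

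Tmem173 (chr18:35733678-35740554), which encodes STING, was by contrast slightly lower. It measured 216.6, 221.3 and 237.2 CPM in WT and 196.3, 183.4 and 193.2 CPM in KO, with no overlap. The log2 fold change was -0.24 ± 0.07 (SE; interval -0.39 to -0.08) and the edgeR adjusted p was 0.0266, so that it passed the p threshold but not the fold cutoff. Its nearest profiles over the 6 samples, by the measure used for Ankle2, were those of Zdhhc13 (distance 0.05), Rnf215 (0.06) and Pip4k2b (0.06). Their log2 fold changes were -0.25, -0.26 and -0.22, with 0 of 3 called by edgeR or DESeq2 (3 had an unadjusted edgeR p under 0.05). These values too follow from the choice by likeness. Tbk1 (chr10:121546455-121586794, minus strand), the kinase downstream of STING, measured 86.7, 95.8 and 102.8 CPM in WT and 102.2, 97.1 and 91.8 CPM in KO. The groups overlapped throughout, and the log2 fold change was 0.03 with an interval of -0.16 to 0.22 (edgeR adjusted p = 0.812). The interval did not reach a 1.5-fold change in either direction.

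Trex1 (chr9:109057932-109059723, minus strand), the nuclease that removes cytosolic DNA, depended on a single library. It measured 9.56, 6.06 and 21.1 CPM in WT and 13.7, 12.9 and 12.0 CPM in KO. The KO samples lay close together, above WT samples 1 and 2 and below WT sample 3. With all 6 samples the log2 fold change was 0.07 ± 0.40 (SE; interval -0.85 to 0.99, edgeR adjusted p = 0.908). Without WT sample 3 it was 0.71 ± 0.18 (SE) with an edgeR adjusted p of 0.00361, and Trex1 was then called higher. In that fit 26.8% of genes were called, 13.6% higher. The ratio of Mb21d1 to Trex1 counts was 1.24, 2.09 and 0.55 in WT and 1.35, 1.26 and 1.48 in KO, with a log2 difference of 0.26 (exact permutation test, two-sided, p = 0.7) that became -0.25 without WT sample 3. Trex1 is also uncertain because 1791 of its bases lie within the readthrough gene Atrip-trex1, which had its own row with mean values of 27.5 CPM in WT and 25.5 CPM in KO and was not called.

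Several genes of the type I interferon response were arranged over the samples as Trex1 was. Of the list of receptor, transducer and target genes, 16 of 19 were in the table and tested. With all samples 0 were called higher and 1 was called lower, and the median log2 fold change was 0.01. At an unadjusted edgeR p under 0.05, 1 was higher and 4 were lower, and DESeq2 called 0 higher and 1 lower. The gene that fell was Ifnar2, a chain of the type I interferon receptor, which averaged 81.1 CPM in WT samples and 46.4 CPM in KO samples, with a log2 fold change of -0.81 and an edgeR adjusted p of 0.000205. Without WT sample 3, 9 of the 16 were called higher and 1 lower, and the median was 0.76. The following examples were chosen after their values were seen. Isg15, an interferon-induced ubiquitin-like protein, measured 11.8, 16.2 and 62.0 CPM in WT and from 47.5 to 50.4 CPM in KO. Irf7, a transcription factor that amplifies interferon production, was 3.42 times as high in WT sample 3 as in the mean of WT samples 1 and 2, and 2.12 times as high in the KO mean. For Ifit3 these values were 6.48 and 3.45, and for Trex1 2.71 and 1.65.

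In 10 of the 16 interferon genes all KO samples lay above WT samples 1 and 2 and below WT sample 3, a pattern looked for after the Trex1 values were seen. It held for 4.49% of all genes tested and, among the 9 members, for Trex1 only. Mb21d1 and Tmem173 did not share it: in WT sample 3 their values were 0.95 and 1.08 times the mean of WT samples 1 and 2. Whether Trex1 and most of these 10 interferon genes were called between KO and WT Tregs depended on WT sample 3. Irf9 and Ifit1 were not called with or without it. Ifnb1 was in the list of interferon genes, but no row was found for it, so its mRNA was not analyzed here.

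**Figure D3:**
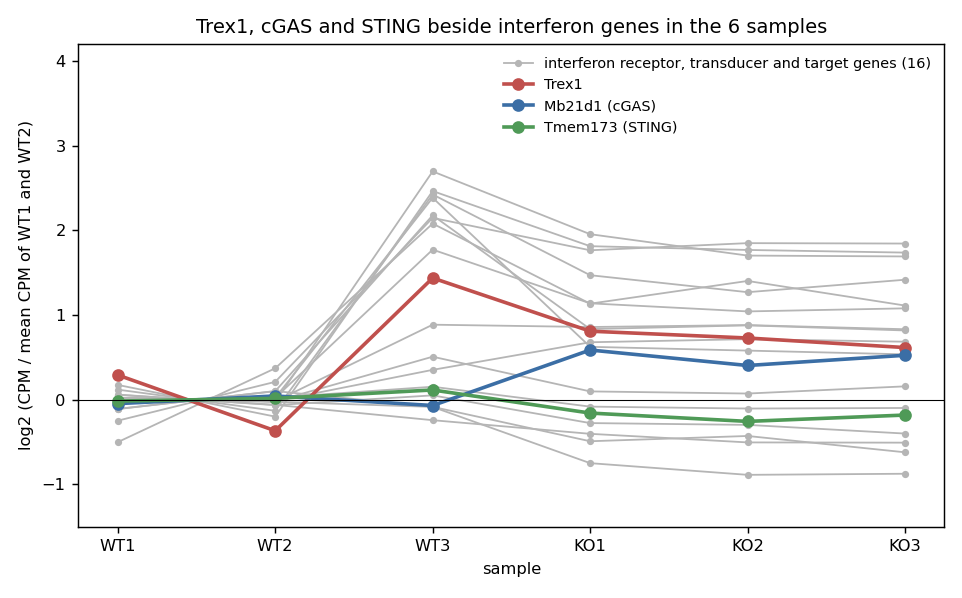
Log2 of the CPM in each sample divided by the mean CPM of WT samples 1 and 2 (y axis) for Trex1 (red), Mb21d1 (blue), Tmem173 (green) and 16 interferon receptor, transducer and target genes (gray), with lines joining the values of a gene and no order implied among replicates. Trex1 peaks in WT sample 3 at 2.71 times the mean of the other WT samples, as several interferon genes do, while Mb21d1 and Tmem173 stay near 0 there.

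Among 28 genes listed as partners, relays and regulators of cGAS and STING, 4 were called higher and 3 lower. This was 25% of the list, near the 24.4% of all genes, and the median log2 fold change was 0.08. Rhbdf2, which encodes iRhom2, a STING trafficking adaptor, rose from 20.1 ± 6.02 to 67.6 ± 5.15 CPM (log2 fold change 1.75, edgeR adjusted p = 0.000465). Zcchc3, a cofactor of cGAS, rose by 0.93 on the log2 scale (edgeR adjusted p = 0.0612), and Rnf26, a ubiquitin ligase of STING, by 0.75 (adjusted p = 0.00878). The call of Rnf26 rested on WT sample 3, the lowest WT value, and without it the log2 fold change was 0.57 and not called. For Zcchc3 WT sample 3 was also the lowest WT value, at 3.15 CPM. Without it the log2 fold change of Zcchc3 was 0.61 and still called. The genes that fell included Slc19a1, a carrier that also imports cyclic dinucleotides, from 43.8 ± 1.62 to 23.5 ± 2.01 CPM (log2 fold change -0.90, edgeR adjusted p = 0.000346). Ikbke, the kinase most like TBK1, fell from 517.6 ± 33.4 to 315.6 ± 12.0 CPM (log2 fold change -0.71, edgeR adjusted p = 0.000355). Trim32, a ubiquitin ligase that acts on STING, had a log2 fold change of -0.65 (edgeR adjusted p = 0.0106). The difference between Ikbke and Tbk1 in fold change was not tested.

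Other DNA sensors were called in 5 of 17 cases, 4 higher and 1 lower (29.4%, against 24.4% of all genes). Their median log2 fold change was 0.13. The AIM2 inflammasome sensor gene Aim2 fell from 58.0 ± 0.42 to 34.9 ± 1.85 CPM (log2 fold change -0.73, edgeR adjusted p = 0.000316). The interferon-inducible Ifi204 measured 1.28, 0.27 and 7.87 CPM in WT and 80.2, 75.3 and 78.7 CPM in KO, and its log2 fold change of 4.64 was the largest in these lists (edgeR adjusted p = 0.00341). Without WT sample 3, the highest WT value, it was 6.60. Hmgb2, a chromatin protein that binds DNA, had a log2 fold change of 1.69, and Ifi205 one of 1.08 (edgeR adjusted p = 0.000295 and 0.0205). Of 13 enzymes that clear nucleic acids, 3 were called higher and 1 lower (30.8%, against 24.4% of all genes), with a median of -0.01. The secreted nuclease gene Dnase1l3 rose from 3.80 ± 2.12 to 20.5 ± 1.81 CPM, the lysosomal exonuclease gene Pld4 from 1.93 ± 1.12 to 6.49 ± 0.69 CPM, and Rnaseh2b, a subunit of ribonuclease H2, from 26.9 ± 5.87 to 50.7 ± 2.69 CPM. Their log2 fold changes were 2.43, 1.75 and 0.91, and that of the mitochondrial nuclease gene Endog was -0.77, with edgeR adjusted p from 0.00302 to 0.0246.

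Markers of myeloid and dendritic cells moved beside these genes. Of 11 measured, 6 were called higher and 0 lower by edgeR and by DESeq2 (7 and 0 at an unadjusted edgeR p under 0.05), and their summed level was 58.4 to 66.3 CPM in WT and 95.0 to 106.7 CPM in KO, with none listed at 0 in every sample. Among the CD8 T and NK cell markers 3 of 5 were called higher, with sums of 12.9 to 19.0 CPM in WT and 27.0 to 28.9 CPM in KO, while B cell markers were lower in sum, at 19.9 to 22.1 CPM and 13.7 to 14.6 CPM, and 1 of 7 was called lower. Of all genes tested, 11.9% were called higher and 12.5% lower. The part of such cells in the values of Ifi204, Dnase1l3 and Pld4 was not tested, and in bulk samples fewer cells of a type cannot be told apart from less RNA per cell.

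The called nuclear envelope genes outside the 9 were all higher in KO Tregs. Of 36, 7 were called higher and 0 lower by edgeR (19.4%, against 11.9% of all genes called higher), with a median log2 fold change of 0.24. DESeq2 called 8 higher and 0 lower, and at an unadjusted edgeR p under 0.05 there were 17 higher and 5 lower. Lmnb1, which encodes lamin B1 of the nuclear lamina, rose from 170.3 ± 45.6 to 447.7 ± 19.6 CPM (log2 fold change 1.39, edgeR adjusted p = 0.000997). Lmna, which encodes A-type lamins, rose from 25.8 ± 1.07 to 52.7 ± 1.87 CPM, and Lbr, the lamin B receptor, from 194.1 ± 5.30 to 343.9 ± 8.06 CPM. Their log2 fold changes were 1.03 and 0.83 (edgeR adjusted p = 8.59e-05 for each). The PP2A subunits in the list, the phosphatase through which ANKLE2 acts on Baf, had log2 fold changes from -0.36 to 0.55, and 0 of 6 were called by edgeR or DESeq2, while at an unadjusted edgeR p under 0.05 there were 4 higher and 1 lower. Without WT sample 3, Ppp2cb, a catalytic subunit, was called higher, at 0.59 against 0.55 with all samples. Genes of cycling cells moved in the same comparison: 20 of 20 were called higher, with a median log2 fold change of 1.83 and sums of 1163 to 2144 CPM in WT and 5544 to 5743 CPM in KO. Lmnb1 was lowest in WT sample 3, at 118 CPM, the sample with the lowest sum of cycling genes. Hmgb2 and Rnaseh2b were also lowest in WT sample 3, at 169 and 20.4 CPM. The part of cycling cells in the nuclear envelope values, and in those of Banf1, Emd, Hmgb2 and Rnaseh2b, was not tested. Without WT sample 3, 6 nuclear envelope genes and 19 of the cycling genes were called higher. In the nuclear envelope list Ran and Rcc1 lost their calls and Ppp2cb gained one. In that fit the counts higher and lower were 5 and 3 for cGAS and STING partners, where Rnf26 was lost and Ifih1 and Insig1 were gained, 4 and 1 for other DNA sensors and 3 and 2 for nucleic acid clearance, where Mus81 was gained. Ifih1 was in the list of partners although it encodes an RNA sensor. Of the myeloid markers 6 were again called higher, with Fcer1g gained and Lyz2 lost. The genes named as gained or lost were chosen after their values were seen.

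**Figure D4:**
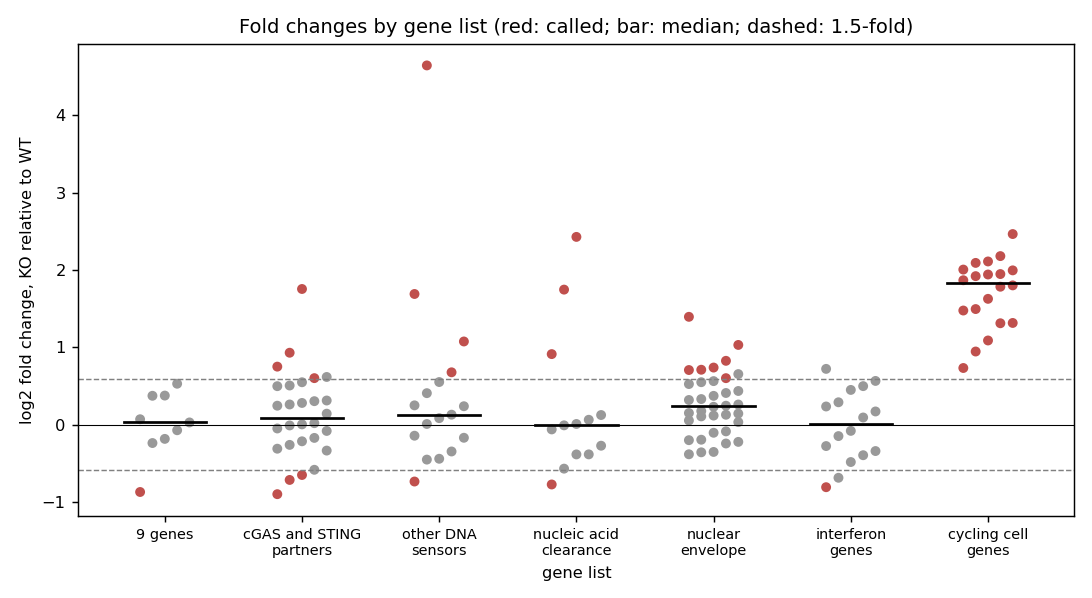
Log2 fold change in KO relative to WT (y axis) of every tested gene in each list, 1 point per gene, with called genes in red, list medians as black bars and the 1.5-fold cutoff dashed. Called genes of the nuclear envelope list all lie above 0, and all 20 genes of cycling cells lie above the upper cutoff. The 9 members run from -0.87 (Ankle2, the only one called) to 0.53 (Mb21d1).

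Levels were set side by side per kilobase of transcript. In WT Tregs Tmem173 stood highest at 97.9 ± 4.69 CPM per kilobase, followed by Banf1 (50.9 ± 6.99), Emd (32.9 ± 1.87), Tbk1 (31.4 ± 2.67) and Vrk1 (26.6 ± 0.71), and then Ankle2 (12.7 ± 0.61), Trex1 (11.3 ± 7.29), Lemd3 (9.17 ± 1.08) and Mb21d1 (2.99 ± 0.12; SD, n = 3 each). Emd and Tbk1 were within their spread of each other, and Trex1, with its wide spread in WT, did not stand apart from Ankle2 or Lemd3. Mb21d1 was the least abundant transcript of the 9 on this scale and Tmem173 the most abundant. In KO Tregs the upper 5 kept this order, from 83.1 ± 2.93 CPM per kilobase for Tmem173 to 23.4 ± 0.35 for Vrk1. Below them Trex1 was at 11.9 ± 0.79, Lemd3 at 8.72 ± 0.56, Ankle2 at 6.97 ± 0.24 and Mb21d1 at 4.31 ± 0.27. Ankle2 had moved from above Lemd3 to below it, with no overlap of mean ± SD in either genotype.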

How the data were processed

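Bulk RNA-Seq libraries from Tregs of 3 WT and 3 KO samples were made with a TruSeq RNA kit from total RNA. Per the study's methods, reads were cleaned with SOAPnuke, HISAT2 placed them on mm10 with a single alignment kept per read, and StringTie quantified genes. The submitters' processing notes also name DESeq2. The authors deposited raw counts per gene, whole numbers with no normalization, after low-count genes had been removed. The counting step, its use of strand and the annotation were not given in the sources used here, so reads of overlapping genes cannot be told apart. Groups came from the genotype labels.

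The deposited counts were tested with R 4.3.3 and edgeR 4.0.16 (filterByExpr at a minimum count of 10, TMM scaling, quasi-likelihood F-test, two-sided). The filter removed 115 genes, none of them a member. The study's cutoffs defined a call, with p-values adjusted over all 13594 genes tested. CPM values used TMM-scaled library sizes. Standard errors and 95% confidence intervals came from the same fit. Ratios of counts were compared with an exact permutation test over samples. The script was tested on simulated data. At 32032631 counts or more per library, 3 counts equal at most 0.091 CPM, which covers counting error only. Every pair of replicates differed by more than sampling noise, by 5.25 to 26.3 times the variance expected from counting alone.

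Alternatives were DESeq2 1.42.0, other scaling and filters, other cutoffs (glmTreat, strict adjusted p), offsets for GC content and length, a replicate block and leaving out each sample. Replicate numbers were not described as pairing the samples, and deviations of same-numbered samples showed little correlation. Loci, neighbors and promoters came from RefSeq GRCm38.p6, the assembly that mm10 denotes, which held 99.92% of the symbols. Transcript lengths came from GENCODE M21, by a single transcript per gene.

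The genes and lists were chosen with earlier results of these data known. The text names all 9 members, Zfp335, genes overlapping a member, and the 3 nearest profiles to Ankle2 and Tmem173 among genes with at least 5 CPM (log2 CPM with a prior count of 2). It also names the 3 largest called rises and falls of each gene list averaging 1 CPM or more, except for genes of cycling cells. Of the cell marker lists, counts and sums are given. Treg and T cell markers were called lower in 4 of 8 cases (3 without WT sample 3, where Foxp3 was not called), and erythroid and stromal markers in 1 of 5 (3 without WT sample 3, with Hba-a1 and Hbb-bs added to Col1a2). Of all genes tested with all samples, 12.5% were called lower. Treg and T cell markers summed to 4889 to 5990 CPM in WT and 3852 to 3946 CPM in KO. Erythroid and stromal markers summed to 208 to 266 CPM in WT and 164 to 173 CPM in KO.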

Additional observations from a re-analysis of the deposited data

How the results depend on the processing

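Ankle2 was called lower in all 15 alternatives, with log2 fold changes from -0.92 to -0.85 and adjusted p of at most 0.00954. The number of genes called was 5244 with an adjusted p under 0.05 and no fold cutoff and 1686 with edgeR's glmTreat against a fold of 1.5, and 2867 to 3667 when single samples were left out. Without the fold cutoff 3 members were called higher (Banf1, Mb21d1 and Emd) and 3 lower (Ankle2, Tmem173 and Vrk1), and the lists gave 16 calls for cGAS and STING partners, 8 for nucleic acid clearance, 20 for the nuclear envelope (16 higher, 4 lower) and 4 for interferon genes. With glmTreat they gave 2 calls for cGAS and STING partners, 3 for other DNA sensors and 3 for the nuclear envelope. Leaving out single samples gave 0 to 1 members called higher and 1 to 10 interferon genes called. The 1 member was Trex1 and the 10 interferon genes were called without WT sample 3.

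Genes near 0 changed sign. Tbk1 was at -0.00774 with library totals alone, -0.0488 with GC and length offsets, -0.0330 without WT sample 1 and -0.00858 without KO sample 1 (0.0852 at the most, without WT sample 3). Trex1 was at -0.08 without WT sample 1 and -0.26 without WT sample 2, against 0.71 without WT sample 3, and Lemd3 at 0.0197 without WT sample 3 and down to -0.15 otherwise. The log2 difference in the ratio of Mb21d1 to Trex1 was -0.25 to 0.71 as single samples were left out. The cause of these sign changes was not tested.

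With the replicate block 3190 genes were called, 3100 of them shared with the fit without it, and Ankle2 stayed the only member called. Deviations of same-numbered samples from their group means correlated at 0.04, 0.04 and -0.01. Whether same-numbered samples shared an origin was not tested. With 3 samples per group, small differences such as those of Vrk1 and Tmem173 rest on few values.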
